A study of Mus musculus with 16 samples.

Results

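Classical monocytes leave the bone marrow for the blood and carry a set of genes by which they are recognised, and 9 of these genes are described here. They are the growth factor receptor genes Csf1r and Csf2ra, the surface antigen genes Ly6c1 and Ly6c2, the lysosomal protease gene Ctss, the Toll-like receptor accessory gene Ly86, and F13a1, Fn1 and Vcan, whose products act in clots and the extracellular matrix. Their probes were taken by name, as every array probe whose gene name was one of the 9. The genes themselves were chosen with earlier results of these data known. The array carried 14 such probes for 8 of the 9 genes, among 34650 gene names in all. No probe carried the name Ly6c2. Of the 14 probes, 13 were well above background on all 16 arrays and were tested, and the other, a Vcan probe (A_52_P1044655), was above background on 0 arrays and was not.

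RNA came from the marrow of 16 mice, each hybridised to its own array. The 8 KO chimeras were lethally irradiated C57BL/6J mice (950 Rad) given marrow of strain Adrb1tm1BkkAdrb2tm1Bkk/J, which lacks the beta 1 and beta 2 adrenergic receptors, by 1 retro-orbital injection at a stated ratio of 1 part knockout to 4 parts C57BL/6J. The 8 controls were also C57BL/6J mice irradiated with 950 Rad, and recovery before collection is given as 2 to 3 months. The same treatment text, injection and ratio included, stands beside the controls too, so the labels do not settle whether controls were grafted. Nor do they settle what the ratio refers to, so the share of knockout cells in the marrow is not known. Neither age nor sex is stated. The labels name a marrow donor strain for the KO chimeras and none for the controls, so receptor loss, the donors' background and grafting itself cannot be told apart. In such a chimera the receptors are missing from blood-forming cells of knockout origin, while the host's own stroma, vessels and nerves keep them. The 75th percentile of the signal, by which each array was scaled, spanned 127 to 545 (KO chimeras) and 231 to 558 (controls). The 16 arrays were spread over 6 slides, 5 of which carried both groups, and over 2 scan days that each held 4 KO chimeras and 4 controls. Mice are called KO1 to KO8 and C1 to C8, after their titles.

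Monocytes arise in marrow from granulocyte and monocyte progenitors under the transcription factor PU.1, and signals through the Csf1 receptor sustain them and the macrophages that some of them become. Sympathetic nerves reach the marrow, and noradrenaline acting on beta adrenergic receptors is known to influence the output of monocytes there. The genes differ in how specific they are: Ly6c1 is also made by endothelial cells, Fn1 by stroma, Ly86 by B cells and Ctss by dendritic cells. In bulk marrow, fewer cells of a type and less RNA per cell cannot be told apart.

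For 4 of the 8 genes, several probes read different stretches of the transcript, and which stretch was read bears on the results below. Of these, 3 are shown, 5′ to 3′ as designed, and the results set each against another probe of its gene. The Csf1r probes, which the results also compare with each other, are not shown. Positions are those of the array files on mouse build mm9, and exon annotation of that build was not used here. The Ly6c1 probe A_55_P1961499 matches chr15:74877785-74877844, the F13a1 probe A_55_P2186125 chr13:37063829-37063888 and the Vcan probe A_55_P1960208 chr13:89851810-89851869, all on the minus strand.
Ly6c1 A_55_P1961499: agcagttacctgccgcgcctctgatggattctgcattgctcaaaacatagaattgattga
F13a1 A_55_P2186125: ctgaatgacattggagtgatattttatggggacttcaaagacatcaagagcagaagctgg
Vcan A_55_P1960208: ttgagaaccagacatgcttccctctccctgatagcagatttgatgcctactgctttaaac
Ly6c1 and Ly6c2 are close relatives, so a Ly6c1 probe can also read Ly6c2 RNA.

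Csf1r, Csf2ra and Vcan were higher in the KO chimeras at 4 probes in all, Ly86 was lower, and Ly6c1, F13a1, Fn1 and Ctss did not pass the test at any probe. In all, 5 of 13 tested probes, in 4 genes, were called at an adjusted p under 0.05 with limma, against 23.5% of all 32689 probes tested on the array. By direction, 4 of the 13 rose, against 11.4% of all probes, and 1 fell, against 12.2%. The log2 difference (KO chimera minus control) was above 0 at 11 probes and below 0 at 2, Ctss and Ly86. Its median over the 13 probes was 0.27, against -0.012 over all probes tested. At 0 of the 13 probes did every KO chimera lie outside the range of the controls, a separation that 6.34% of all probes showed.

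**Figure D1:**
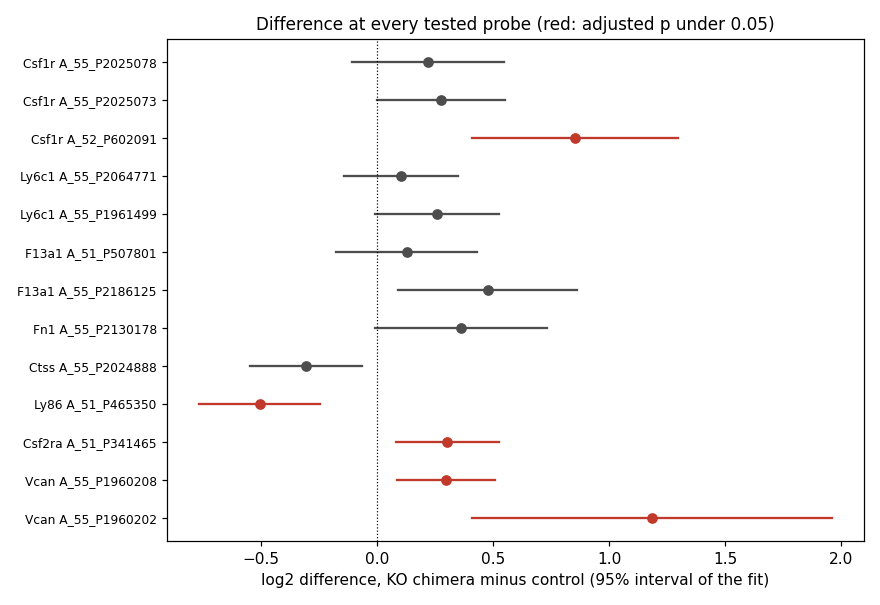
Log2 difference, KO chimera minus control, at each of the 13 tested probes (points), with the 95% interval of the limma fit (lines); red marks an adjusted p under 0.05 and the dotted line marks 0. Of 13 points, 11 lie right of 0. The intervals of the Csf1r probe A_52_P602091, the F13a1 probe A_55_P2186125, Csf2ra and both Vcan probes lie wholly right of it. Those of Ly86 and Ctss lie left.

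Csf1r encodes the receptor through which the cytokines CSF-1 and IL-34 sustain monocytes and macrophages. Its probes did not give a single answer. Probe A_52_P602091 read 0.48 at the lowest, 1.31 at the median and 1.69 at the highest among KO chimeras, and -0.40, 0.35 and 0.74 among controls, as log2 levels over the array's 75th percentile. KO5 and KO8 lay inside the controls' range and the other 6 KO chimeras lay above every control. The rise was 0.85 ± 0.21 on the log2 scale (SE, n = 8 mice per group, adjusted p = 0.00684), or 1.81-fold with a 95% interval of 1.33 to 2.46.

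The other Csf1r probes showed smaller differences that did not pass. A_55_P2025078 read 4.90, 5.21 and 5.95 (lowest, median and highest) in KO chimeras and 4.78, 5.10 and 5.64 in controls, and its difference of 0.22 ± 0.16 (adjusted p = 0.346) had a 95% interval of -0.11 to 0.55. The groups overlapped over most of that range. A_55_P2025073 differed by 0.27 ± 0.13 (adjusted p = 0.146). At that probe all 8 KO chimeras lay above the control median of 0.81, and a single control, C8 at 1.48, lay above all of them. Without C8 the difference was 0.36 with an adjusted p of 0.0223.

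Whether the Csf1r probes moved unequally was then tested on the gap between probes within each array, a test chosen after the values were seen and run on the 6 pairs of probes that 4 genes offer. The level of A_52_P602091 minus that of A_55_P2025078 averaged -4.22 in KO chimeras and -4.86 in controls. The gap was thus 0.63 (log2) narrower in KO chimeras. Its two-sided p was 7.77e-04 by an exact permutation test over the 8 and 8 mice (adjusted over the 6 pairs 0.00466). Against A_55_P2025073 the same gap differed by 0.58 (exact permutation p = 0.0155, adjusted 0.0311). A_55_P2025078 and A_55_P2025073 differed from each other by 0.054 in this measure (adjusted exact permutation p = 0.654). On the genome A_52_P602091 starts 1327 bases upstream of A_55_P2025078, and its 60 bases span 361 bases, so it crosses a stretch that the RNA it matches leaves out. A_55_P2025073 starts 12064 bases upstream of A_55_P2025078. The Csf1r rise therefore rests on 1 of 3 probes.

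Csf2ra encodes the ligand-binding chain of the receptor for GM-CSF, which acts on granulocytes and monocytes alike. Its probe, A_51_P341465 at chromosome 19, 61300336 to 61300395, read 6.57, 6.92 and 7.23 (lowest, median and highest) in KO chimeras and 6.44, 6.57 and 6.88 in controls. The 5 highest KO chimeras lay above every control, and the other 3 lay within the controls' range. The rise was 0.30 ± 0.11 (adjusted p = 0.0478), or 1.23-fold. KO chimeras were higher on 5 of the 5 slides that held both groups, by 0.063 to 0.45. The call was close to the threshold: it ended, with adjusted p from 0.0628 to 0.0934, when any 1 of 11 mice was left out (KO1, KO2, KO5, KO6, KO8, C1, C2, C3, C4, C6 or C7), and with slide as a block (0.0593) or scan day as a block (0.0510).

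The other receptors and ligands of this cytokine family give a setting for both genes. Of 10 measured members of that list, 2 rose, 0 fell and 8 did not pass, where 22.3% of all gene symbols were called at their brightest probe (10.3% rising and 12.1% falling). The 2 that rose were the ligands of Csf1r. Csf1, which encodes CSF-1, rose by 0.56 ± 0.12 (adjusted p = 0.00336), from a control median of 0.29 to a KO chimera median of 0.83, and its other probes rose by 0.64 and 0.60. Il34 rose by 0.43 ± 0.13 (adjusted p = 0.0192) at a dim probe, with means of -3.38 in KO chimeras and -3.81 in controls. That probe was well above background on 7 of 8 KO chimera arrays, and its call held in 28 of 33 alternatives. The signalling chain that Csf2ra pairs with, Csf2rb, differed by -0.12 ± 0.15 at its brightest probe (adjusted p = 0.634, 95% interval -0.44 to 0.20), and was picked for its known role after values were seen. Its second probe, A_66_P123635, was lower by -0.44 ± 0.15 (adjusted p = 0.0451), a call that ended, with adjusted p from 0.0520 to 0.0899, when any 1 of 11 mice was left out (KO1, KO2, KO3, KO5, KO7, KO8, C2, C5, C6, C7 or C8).

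Ly6c1 encodes a member of the Ly6C antigens, which mark classical monocytes in the mouse and also vessels. Neither of its probes passed the test. A_55_P2064771, at chromosome 15, 74875495 to 74875554, read 7.36, 7.82 and 8.10 in KO chimeras and 7.30, 7.66 and 8.04 in controls, a difference of 0.10 ± 0.12 (adjusted p = 0.586, 95% interval -0.15 to 0.35). The probe printed above, A_55_P1961499, lies 2290 bases toward the 5′ end and read 5.59, 5.81 and 6.34 in KO chimeras and 5.41, 5.62 and 5.96 in controls. Both groups overlapped there too, although KO4 and KO6, both at 6.34, and KO1 at 6.03 lay above every control. The difference of 0.26 ± 0.13 had an adjusted p of 0.159 and an interval of -0.0096 to 0.53. Among other genes of the Ly6 family, 0 of 14 measured genes rose and 2 fell, a share near the 12.1% of all gene symbols that fell. They were Ly6e, which fell by 0.44 ± 0.11 (adjusted p = 0.00620), and Ly6a, which encodes the stem cell antigen Sca-1 and fell by 0.37 ± 0.10 (adjusted p = 0.0172).

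**Figure D2:**
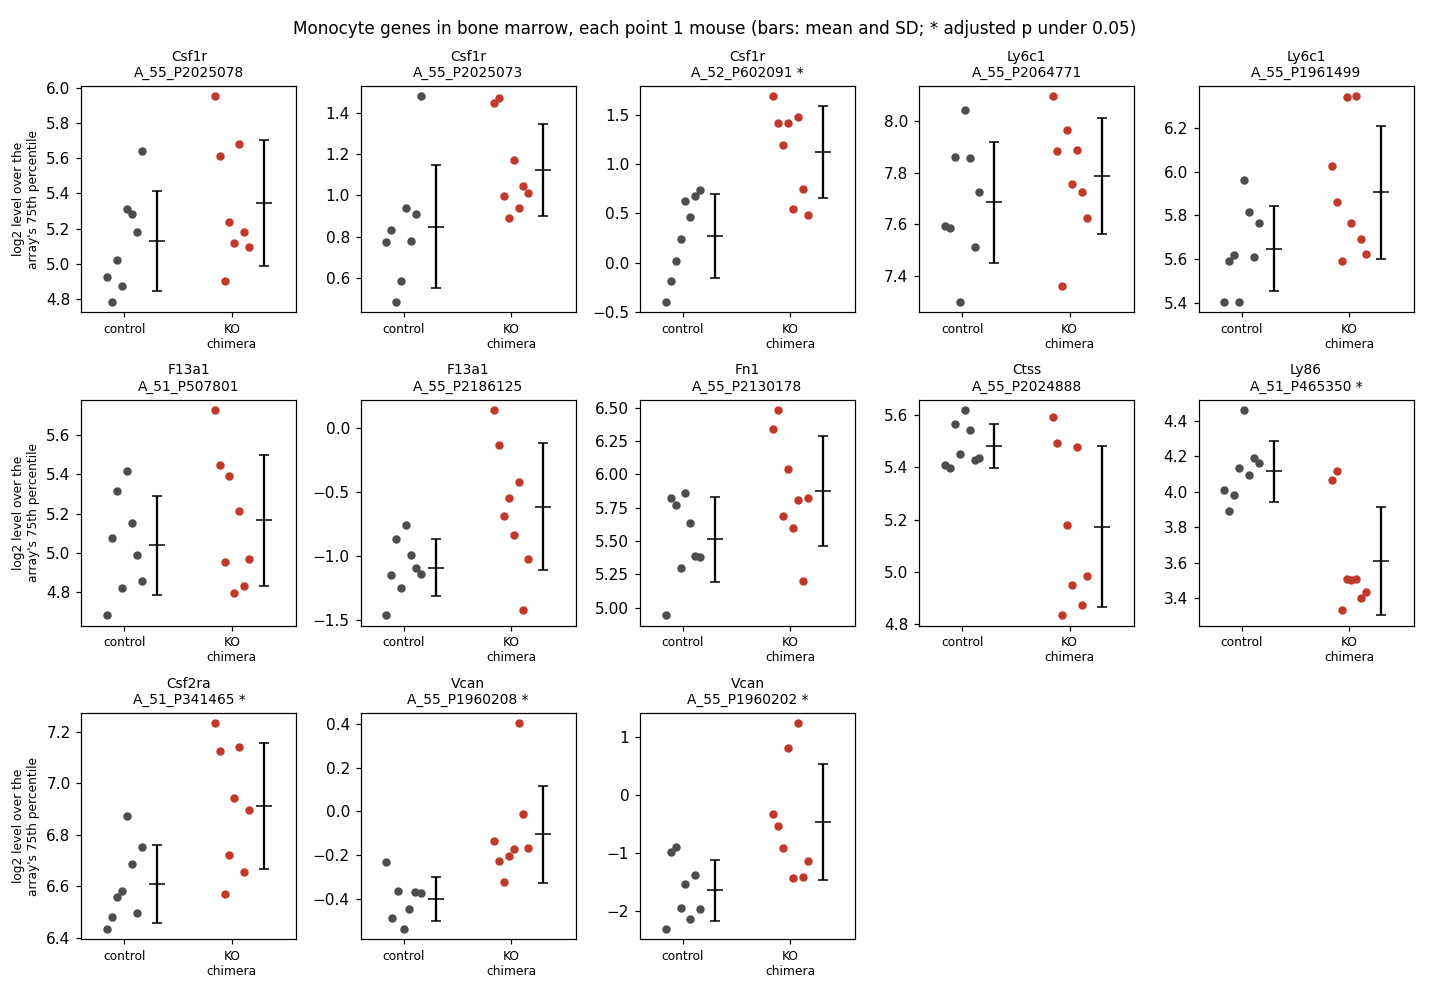
Log2 level over the array's 75th percentile for each mouse (points) at the 13 tested probes, controls in grey and KO chimeras in red, with the group mean and SD (bars); each panel has its own scale and an asterisk marks an adjusted p under 0.05. In the Ly86 panel 6 red points lie below all grey points and 2 lie among them, and in the Vcan panel A_55_P1960208 control C8 has no point because its spot was called an outlier.

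Ly86 fell, against the direction of the other called genes. It encodes MD-1, the secreted partner that helps the Toll-like receptor relative RP105, the product of Cd180, to reach the cell surface. Its probe, A_51_P465350 at chromosome 13, 37510701 to 37510760, read 3.33, 3.50 and 4.11 (lowest, median and highest) in KO chimeras and 3.89, 4.12 and 4.46 in controls. KO1 at 4.07 and KO2 at 4.11 lay within the controls' range, and the other 6 KO chimeras, none above 3.51, lay below every control. The difference was -0.51 ± 0.12 (adjusted p = 0.00624, 95% interval -0.77 to -0.25), a level 0.703 times that of controls. Ly86 was lower on 5 of the 5 slides with both groups, with differences from -0.72 to -0.38, and leaving out each mouse in turn gave adjusted p-values from 0.00139 to 0.0139. Within scan day 1 the difference was -0.58 (adjusted p = 0.113, 4 mice per group) and within scan day 2 it was -0.44 (adjusted p = 0.125), so neither day alone passed; of all probes, 7.51% and 10.6% were called within these days.

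Cd180 itself, looked up after values were seen, was lower as well. Its probe was dim, though well above background on 8 of 8 arrays of each group. It read -3.44, -3.08 and -2.28 in KO chimeras and -2.73, -2.37 and -2.12 in controls. All KO chimeras other than KO1 lay below every control. The difference was -0.65 ± 0.14 (adjusted p = 0.00261). Over 34 alternatives it ran from -0.76 to -0.35, and its call held in 33. KO1, highest of its group for Cd180, was also 1 of the 2 KO chimeras inside the controls' range for Ly86, whereas KO2 was inside that range for Ly86 and below it for Cd180.

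**Figure D3:**
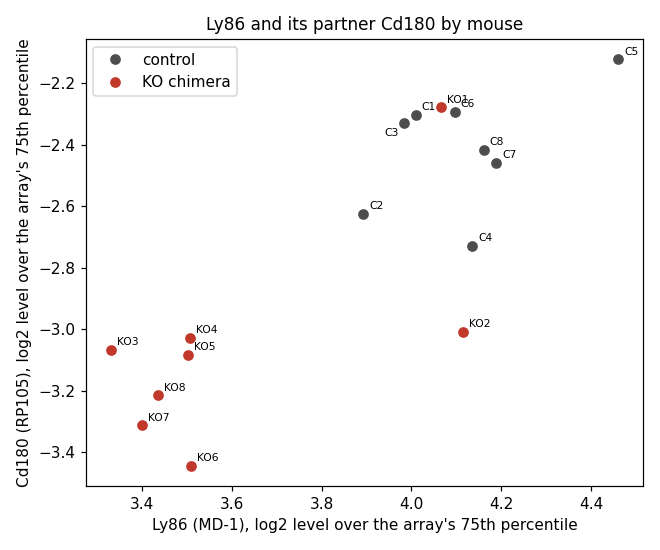
Ly86 (x axis) against Cd180 (y axis) in each of the 16 mice, both as log2 levels over the array's 75th percentile, with controls in grey and KO chimeras in red. The 6 KO chimeras from 3.33 to 3.51 for Ly86 lie low on both axes, KO1 lies among the controls, and KO2 lies among them for Ly86 only.

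Of the 7 measured genes listed as partners of MD-1 and RP105 in sensing bacterial products, 2 rose and 2 fell, against 10.3% and 12.1% of all gene symbols. Cd14, the lipopolysaccharide co-receptor of monocytes, rose by 2.26 ± 0.13 (adjusted p = 2.17e-09), with the lowest KO chimera at 3.51 and the highest control at 1.95. Tlr2, a receptor for bacterial lipoproteins, rose by 1.15 ± 0.17 (adjusted p = 1.11e-04), and Tlr1, which pairs with it, fell by 0.73 ± 0.11 (adjusted p = 1.63e-04). Ly96, which encodes the MD-1 relative MD-2, differed by 0.099 ± 0.13 (adjusted p = 0.649), and its receptor Tlr4 by -0.24 ± 0.17 (adjusted p = 0.324). The fall of Ly86 and Cd180 thus stood beside a rise of Cd14 in the same marrow.

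Ctss encodes cathepsin S, a lysosomal protease that trims the invariant chain of MHC class II. Its probe, A_55_P2024888 at chromosome 3, 95360245 to 95360304, read 4.84, 5.08 and 5.59 in KO chimeras and 5.40, 5.45 and 5.62 in controls. The controls lay close together (SD 0.082) and the KO chimeras were spread (SD 0.31): 5 of them lay below every control, and KO1, KO2 and KO6 lay among the controls. The difference of -0.31 ± 0.11 did not pass (adjusted p = 0.0617, 95% interval -0.55 to -0.066). It passed when any 1 of those 3 mice was left out, with adjusted p of 0.0223 without KO1, 0.0351 without KO2 and 0.0365 without KO6. Among 17 measured genes of the cathepsin list, which also holds inhibitors, the related protease Lgmn and the invariant chain gene Cd74, 5 rose and 3 fell, against 10.3% and 12.1% of all gene symbols. They included falls of Ctsw, a cathepsin of cytotoxic lymphocytes, by 0.56 ± 0.11 (adjusted p = 9.01e-04) and of Ctso by 0.60 ± 0.13 (adjusted p = 0.00209), and a rise of Cstb, which encodes an inhibitor of cathepsins, by 0.52 ± 0.12 (adjusted p = 0.00371).

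Vcan, F13a1 and Fn1 are abundant in classical monocytes. Vcan encodes versican, a large proteoglycan of the matrix. Probe A_55_P1960202, at chromosome 13, 89795080 to 89795139, read -1.43, -0.72 and 1.23 in KO chimeras and -2.31, -1.75 and -0.90 in controls. KO6 at 1.23 and KO4 at 0.81 stood highest, KO1 and KO2 also lay above every control, and the remaining 4 lay within the controls' range. The rise of 1.18 ± 0.37 (adjusted p = 0.0269, 2.27-fold) was the widest of the 13 probes in its interval, 0.41 to 1.96. By slide it ran from -0.15 to 1.91, higher on 4 of 5 slides. Without C1 the adjusted p was 0.0542 and without C6 it was 0.0529.

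The Vcan probe printed above, A_55_P1960208, lies 56730 bases from that one, toward the 5′ end of the gene. It read -0.32, -0.17 and 0.40 in KO chimeras and -0.54, -0.38 and -0.23 in the 7 controls with a value, and 7 KO chimeras lay above every one of those controls. The rise was 0.30 ± 0.10 (adjusted p = 0.0405). That value leaves out the spot of C8, which the scanner software called an outlier and which read 1.31, above every KO chimera. With that spot kept, the difference was 0.084 (adjusted p = 0.828), and in the authors' deposited log2 values it was 0.088 (adjusted p = 0.815). The call also ended, with adjusted p from 0.0508 to 0.0792, when any 1 of 10 mice was left out (KO1, KO5, KO7, KO8, C2, C3, C4, C5, C6 or C7). The gap between both probes differed by 0.84 between groups, which did not pass (adjusted exact permutation p = 0.0863, n = 8 against 7).

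F13a1 encodes the catalytic subunit of coagulation factor XIII, which cross-links fibrin and which monocytes and megakaryocytes both make. Probe A_51_P507801, at chromosome 13, 36959214 to 36959273, read 4.80, 5.09 and 5.73 in KO chimeras and 4.68, 5.03 and 5.42 in controls. The groups overlapped almost wholly (difference 0.13 ± 0.14, adjusted p = 0.581, interval -0.18 to 0.43). The probe printed above, A_55_P2186125, lies 104615 bases toward the 5′ end and read -1.42, -0.62 and 0.14 in KO chimeras and -1.47, -1.12 and -0.76 in controls. There 5 KO chimeras lay above every control, while KO7 stood lowest of its group and within the controls' range. The difference of 0.48 ± 0.18 did not pass (adjusted p = 0.0691, interval 0.091 to 0.86). It passed without KO7 (adjusted p = 0.0126) or without KO8 (0.0497). The level of the 5′ F13a1 probe minus that of the other averaged -5.78 in KO chimeras and -6.13 in controls. That gap was 0.35 narrower in KO chimeras (p = 0.00451 by the same exact permutation test, adjusted over the 6 pairs 0.0135).

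**Figure D4:**
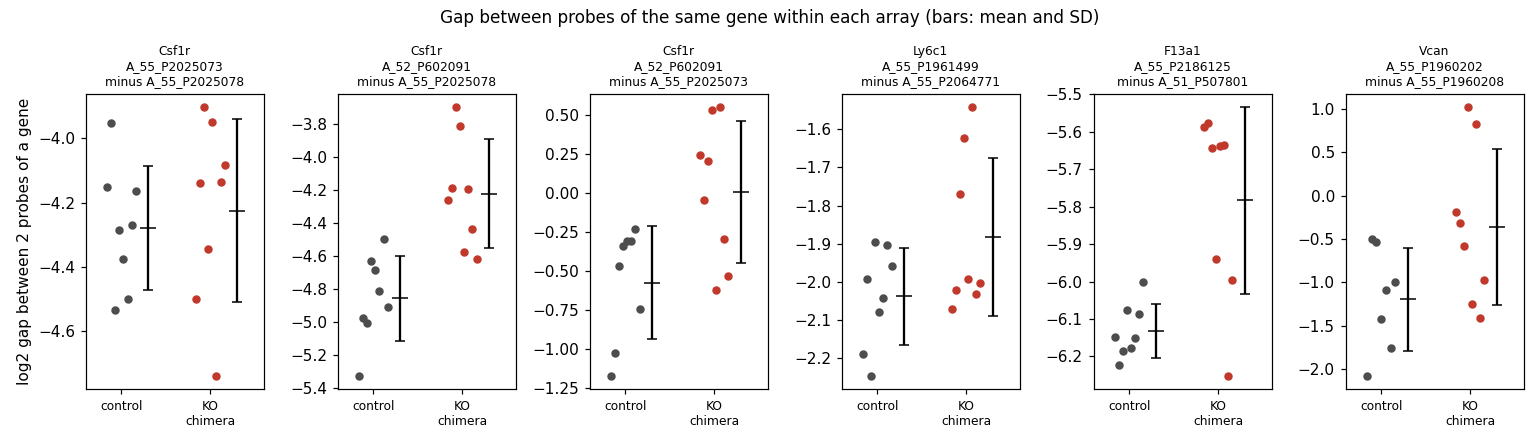
Log2 gap between 2 probes of the same gene within each array (points), for the 6 pairs that Csf1r, Ly6c1, F13a1 and Vcan offer, controls in grey and KO chimeras in red, with the group mean and SD (bars). The pairs of Csf1r with A_52_P602091 and the pair of F13a1 sit higher in the KO chimeras, by 0.63, 0.58 and 0.35, and the other 3 pairs did not pass the test.

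Fn1 encodes fibronectin, to which monocytes adhere through integrins and which they also secrete. Its single probe, A_55_P2130178 at chromosome 1, 71632116 to 71632175, read 5.20, 5.81 and 6.48 in KO chimeras and 4.94, 5.51 and 5.86 in controls. KO2, KO1 and KO4 lay above every control, and KO7 stood near the controls' lower end. The difference of 0.36 ± 0.18 did not pass (adjusted p = 0.154, interval -0.0094 to 0.73). Of 16 measured matrix partners and receptors of Fn1, Vcan and F13a1, 2 rose and 6 fell, against 10.3% and 12.1% of all gene symbols. Of these Cd44, a receptor for hyaluronan, is counted as a rise at its brightest probe (0.57, adjusted p = 8.37e-04), but its second probe fell by more (-1.05, adjusted p = 2.60e-05). The third Cd44 probe rose by 1.00 (adjusted p = 5.00e-04), and the fourth differed by 0.19 (adjusted p = 0.609). The fibronectin-binding integrin subunit Itga4 fell by 2.40 ± 0.30 at its brightest probe (adjusted p = 1.42e-05) but differed by 9.90e-04 at a second one (adjusted p = 0.997). Itgb3, an integrin subunit of platelets that binds fibronectin and fibrinogen, fell by 1.57 ± 0.12 (adjusted p = 3.93e-08), and Tlr2, which versican can engage, is the member with the smallest p among those that rose.

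Within the KO chimeras the monocyte genes ordered the mice in a like way at most probes. KO1 lay above its group's median at 13 of 13 probes and was the highest at 7, KO2 lay above it at 12 and KO6 at 11. KO3 lay above it at 0 probes and was the lowest at 7. Among controls, C5 was the highest at 8 probes and C1 the lowest at 7. KO1, KO6 and KO2 were the 3 highest KO chimeras for Csf2ra and the 3 that lay within the controls' range for Ctss, while for Ly86 KO1 and KO2 lay within that range and KO6 below it. The points share an array, its labelling and its scaling, and this order is given with no test. With group means removed, each probe's level was correlated with the log2 brightness of its array. The correlation ran from -0.614 (F13a1 A_55_P2186125) to 0.032 (Csf1r A_55_P2025073) at 12 probes over 16 mice. It was 0.51 at the Vcan probe A_55_P1960208 over 15. At the Csf1r probe A_52_P602091 it was -0.44, and at A_55_P2025078 it was -0.035. The tests on gaps between probes did not adjust for brightness. With array brightness as a covariate, the Csf1r probe A_52_P602091 (0.73, adjusted p = 0.0185), Ly86 (-0.58, adjusted p = 0.00224) and the Vcan probe A_55_P1960208 were called, Ctss also passed (-0.36, adjusted p = 0.0340), and Csf2ra (0.29, adjusted p = 0.0826) and the Vcan probe A_55_P1960202 (1.02, adjusted p = 0.0677) did not pass.

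Genes whose pattern over the 16 mice was most like that of a member, with each group's mean removed, were looked for among 31740 probes. For Csf1r (A_55_P2025078) they were Coro1a (Pearson r = 0.919), an actin regulator of leukocytes, Rassf4 (0.906) and Clec4a1 (0.891), a C-type lectin of myeloid cells. For Fn1 they were 1700047M11Rik (0.930), Fam160a2 (0.908) and Mirt1 (0.907). These are descriptions of 16 arrays, which share labelling and scaling across probes.

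Other genes of the monocyte programme showed rises at the level of its regulators. Of 19 measured transcription factors of monocytes, 7 rose and 0 fell, against 10.3% and 12.1% of all gene symbols, with a median difference of 0.32 against -0.019 for all gene symbols. Spi1, which encodes PU.1, a direct activator of Csf1r, rose by 0.96 ± 0.15 (adjusted p = 1.35e-04), with every KO chimera (0.71 to 1.56) above every control (-0.24 to 0.58). Bhlhe40 rose by 0.78 ± 0.12 (adjusted p = 1.64e-04), and Klf4, needed for classical monocytes, by 0.71 ± 0.15 (adjusted p = 0.00224). Irf8, which directs progenitors to the monocyte and dendritic lineages, differed by -0.067 (adjusted p = 0.735).

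Of 25 other measured genes of monocyte surface and content, 3 rose, 4 fell and 18 did not pass, shares near the 10.3% and 12.1% of all gene symbols. Itgam, the CD11b gene, is counted as a fall at its brightest probe (-0.31, adjusted p = 0.0151), but a second probe was higher (0.34, adjusted p = 0.0415). That second call ended, with adjusted p from 0.0519 to 0.0844, when any 1 of 10 mice was left out (KO1 to KO6 or C1 to C4). Besides Cd14, Ccr2, the chemokine receptor with which classical monocytes leave the marrow, rose by 0.67 ± 0.20 (adjusted p = 0.0238), from a control median of 2.40 to a KO chimera median of 3.09, and 4 KO chimeras lay above every control. The chemokine gene Ccl6 fell by 0.97 ± 0.087 (adjusted p = 3.14e-07). Spn, which encodes CD43, a marker of nonclassical monocytes, fell by 0.26 ± 0.072 at its brightest probe (adjusted p = 0.0128). A second Spn probe, A_55_P1973573, differed by 0.023 (adjusted p = 0.8605). Cx3cr1, the fractalkine receptor, differed by -0.21 at its brightest probe (adjusted p = 0.377) and rose by 0.84 at its dimmest (adjusted p = 0.00678). Ccr2, Irf8 and Cx3cr1 were named for their roles after values were seen.

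Markers of other marrow cells that make some of these genes also moved; the shares of all gene symbols to set beside their counts are again 10.3% rising and 12.1% falling. Of 12 measured resident macrophage markers, which share Csf1r, 0 rose and 6 fell, and their summed level, in units of the array's 75th percentile, was 16.04 to 24.3 in KO chimeras and 20.6 to 29.8 in controls. Of 10 dendritic cell markers, which accompany Ctss and Csf2ra, 0 rose and 5 fell (168 to 300 against 193 to 226). Of 12 megakaryocyte and platelet markers, which accompany F13a1, 1 rose and 8 fell (22.9 to 54.6 against 43.2 to 80.4). Of 12 B cell markers, which accompany Ly86 and Cd180, 2 rose and 0 fell (73.3 to 178 against 53.0 to 170), while 4 of 7 plasma cell markers fell (57.2 to 88.3 against 89.5 to 155). Of 11 endothelial markers, which accompany Ly6c1, 2 rose and 3 fell (32.3 to 44.7 against 26.6 to 36.8), with Emcn and Tek not well above background. The median log2 difference over the 11 was 0.072. Stab2 weighs heavily in their sum, with a mean log2 level of 3.34 in KO chimeras and -1.65 in controls. Of 10 stromal markers, which accompany Fn1 and Vcan, 2 rose and 0 fell (23.8 to 38.3 against 16.1 to 37.4), with Pdgfra, Col3a1, Postn and Lum not well above background.

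Named by smallest p, the markers that fell were Cd5l (-1.497 ± 0.21) and Axl (-1.13 ± 0.21) of resident macrophages, and Clec9a (-1.56 ± 0.16) and Ccr9 (-0.71 ± 0.15) of dendritic cells (adjusted p from 1.19e-06 to 0.00229). The markers named next had adjusted p-values under 0.05 as well. In the megakaryocyte list Clec1b fell by 2.87 ± 0.22, and among plasma cell genes Jchain fell by 0.81 ± 0.16. Those that rose included Vpreb1 by 1.36 ± 0.37 and Igll1 by 1.40 ± 0.42 of early B cells, Stab2 by 4.995 ± 0.22 and Tie1 by 1.39 ± 0.17 of vessels, and Cxcl12 by 0.62 ± 0.21 and Dcn by 0.82 ± 0.28 of stroma. The stromal calls were close to the threshold and held in 21 (Cxcl12) and 17 (Dcn) of 34 alternatives. That of Cxcl12 ended without any 1 of KO3, KO4, KO6, KO7, C1, C2, C5 or C6 (adjusted p 0.0524 to 0.0797), and that of Dcn without any 1 of KO1, KO3, KO4, KO6, KO8, C2, C3, C4, C5 or C8 (0.0544 to 0.0901). Of 14 neutrophil markers 1 rose (Stfa1) and 0 fell, of 10 progenitor markers 1 rose and 2 fell (Kit and Cebpe), of 11 T cell markers 1 rose (Cd3d) and 5 fell (among them Zap70), and of 11 erythroid markers 0 passed in either direction. The part of these cells in the values of the monocyte genes was not tested.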

How the data were processed

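Marrow total RNA carried the Cy3 dye on 1-colour Agilent arrays, per the labels' protocols. The submitters' processing notes name Agilent Feature Extraction 10.7 and the file headers 10.1.1.1. As deposited, each scanner file gives the spot intensity on a linear scale after background subtraction by that software. The authors' table holds log2 values, quantile normalized per the labels, and served as an alternative; each column correlated with its array's log2 signal at r = 0.991 or more, its medians ran from 4.98 to 5.00, and how it was centred stays unknown.

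Each processed signal was set over its array's 75th percentile and taken to log2. Outlier spots were left out and spots of a probe averaged; 0 spots were saturated. Of 55681 probes, those well above background on at least 6 of 8 arrays of either group, 32689 in all, were fitted with limma 3.58.1 in R 4.3.3 (lmFit, eBayes, two-sided, Benjamini-Hochberg over all of them, with a call at an adjusted p under 0.05). Every difference is KO chimera minus control; ± is the SE of the fit. Each sample is labelled as its own mouse, and the number of mice limits the precision. Gene lists were read at each symbol's brightest probe, with names updated through a RefSeq table (GRCm38.p6, names only), which matched 28026 probes.

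The genes and lists were chosen with earlier results of these data known. Named genes were all members, up to 3 called genes per pathway list and 2 per cell type list by smallest p, and the 3 genes most like Csf1r and Fn1; others are said to be chosen after values were seen. The fit was tested on simulated data. Alternatives were other normalizations and filters, blocks, scan days alone, array weights and leaving out each mouse.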

Additional observations from a re-analysis of the deposited data

Results flagged for a closer look

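Of 28 groups of values, a control and a KO chimera group for each of the 14 probes, 2 held a mouse set apart from the rest of its group by Dixon's test, and chance alone flags about 1 in 20. At the Csf1r probe A_55_P2025073, C8 read 1.48, with the nearest other control at 0.94, a gap of 0.544 of the group's whole range. C8's array also had 966 outlier spots, against 123 to 414 on the others. At the Vcan probe A_55_P1960208, KO6 read 0.40, with the nearest other KO chimera at -0.011, a gap of 0.570 of the range.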

How the results depend on the processing

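Over 34 alternatives no called monocyte probe changed direction, and the F13a1 probe A_51_P507801, never called, was below 0 in 1 (-0.012). With slide as a block, all arrays and the slides holding both groups gave the same values, so the counts include that fit more than once. The Csf1r call at A_52_P602091 held in 32 of 33 alternatives, that of Ly86 in 32 of 34, of Vcan A_55_P1960202 in 25 of 33, of Vcan A_55_P1960208 in 18 of 34 and of Csf2ra in 14 of 34; Ctss passed in 8 of 34. Of the monocyte probes, 2 were called with no filter on dim probes, 3 when a gene was read at its brightest probe alone, 1 within scan day 1 and 0 within scan day 2 (limma, 3 at an unadjusted p under 0.05); leaving out each mouse gave 2 to 6. Called probes over the whole array numbered 2453 (7.51%) within scan day 1 and 3459 (10.6%) within scan day 2, where 8 mice were fitted, and 6604 to 7947 when each mouse was left out. Same-numbered mice did not deviate together (r from -0.193 to 0.194, 1 of 8 closest to its own number), though such correlations cannot exclude a pairing. With the replicate number as a block, 7012 probes and 2 monocyte probes were called. The cause of these changes was not tested. Of 46 called probes checked for the other genes, 17 were called in every alternative run. Of the 14 monocyte probes, 1 (Vcan A_52_P1044655) was not above background on any array, so its level is not known.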
